A study of Homo sapiens with 60 samples.

Results

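Ribosome biogenesis and nucleolar genes form a set of 40 human genes whose products build ribosomes in the nucleolus, and their messenger RNA was followed here in A549 cells under 20 conditions. The members were named as a growth-linked nucleolar program downstream of PI3K and MYC and were found by gene symbol. All 40 of them were among the 60675 genes of the count table, and all 40 were among the 17368 genes that passed the filter on low counts. By role, 5 members are nucleolar scaffold and chaperone proteins, 3 serve transcription by RNA polymerase I, 7 belong to small nucleolar ribonucleoprotein particles (snoRNPs), 11 process the small ribosomal subunit and 14 process the large one. A549 is an established human lung adenocarcinoma line, and RNA was sequenced from 60 libraries in 20 groups of 3. The treated groups received 10 µM wortmannin, the positive control of the design, or a water extract at 20, 100 or 500 µg/mL, made from 1 of 6 plant drugs. These were Polygalae Radix, Aucklandiae Radix, Zizyphi Semen, Longan Arillus, Schisandrae Fructus and Liriopis seu Ophiopogonis Tuber, and each is called by its first word with its dose. The control group received dimethyl sulfoxide (Vehicle), and all cells were harvested after 24 h.

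Ribosomes are assembled in the nucleolus, where RNA polymerase I transcribes a long precursor of ribosomal RNA. Guide particles modify that precursor, nucleases and helicases cut and fold it, and assembly factors join it to ribosomal proteins and release both subunits to the cytoplasm. Growth signals through PI3K and mTOR raise this output, and the transcription factor MYC is known to drive many of the genes, often through the E-box word CACGTG near their start sites. Wortmannin is a fungal metabolite that inhibits PI3K.

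Stretches of 30 bases around that E-box word are shown from the promoters of 6 members, 1 or more from each role that holds the word, since MYC is known to bind it. They are read 5′ to 3′ on the gene's strand from the RefSeq GRCh38.p14 promoter table, which covers 250 bases before to 50 bases from the start of a gene. Capitals mark CACGTG.
FBL, chr19:39846356-39846385, minus strand, E-box from position 7: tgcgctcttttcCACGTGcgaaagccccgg
RRP9, chr3:51941892-51941921, minus strand, E-box from position -5: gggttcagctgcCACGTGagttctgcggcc
WDR43, chr2:28894658-28894687, plus strand, E-box from position 4: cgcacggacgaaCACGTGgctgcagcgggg
NOP2, chr12:6568242-6568271, minus strand, E-box from position 36: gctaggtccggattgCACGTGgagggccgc
PES1, chr22:30591880-30591909, minus strand, E-box from position 14: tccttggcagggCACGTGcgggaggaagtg
EBNA1BP2, chr1:43172790-43172819, minus strand, E-box from position -237: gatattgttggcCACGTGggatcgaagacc
Positions count the first base of the word from the start base, which is 1. The word reads the same on both strands. It was found in 11 of the 34 members with a window (32.4%), in 29.2% of 89 further ribosome biogenesis genes, in 9.94% of 11836 tested genes with a window and in 7.43% of all 27305 windows. The other members with the word were NOP14, BYSL, NOC3L, UTP20 and UTP4. The ETS-type word CCGGAAG or its reverse complement CTTCCGG was also in 32.4% of the members' windows, against 18.1% of the tested genes' windows. A match is a description of the letters in a window and not evidence of a bound factor.

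Depth was 17.7 to 30.6 M expected counts in a library, with a median of 24.6 M, and 22752 to 24484 genes had a count. Levels are CPM, counts divided by the depth of the library after scaling with the trimmed mean of M-values (TMM) method, so they are relative to all other RNA in a library. In bulk RNA, fewer cells that express a gene and less RNA per cell cannot be told apart. A gene was called changed at an adjusted p under 0.05 in edgeR's quasi-likelihood test with Benjamini-Hochberg adjustment over all tested genes. The labels do not say whether the 3 libraries of a group are separate cultures, and the p-values reflect the spread among these libraries alone. Library names start with a prefix that is particular to Vehicle, to wortmannin or to 1 of 3 pairs of extracts, and in comparisons with Vehicle this library set and the treatment cannot be told apart. Polygalae 20 replicates 1 and 3 stood apart from the other libraries of their group. Distance was the root mean square log2 difference from the mean of the group's other libraries. It was 0.24, 0.142 and 0.159 for replicates 1, 2 and 3, and replicate 1 enters the distances of replicates 2 and 3. The Polygalae 20 values, the Polygalae slopes and some counts of single members over extracts are also given without replicates 1 and 3. That leaves only replicate 2 in Polygalae 20, so that dose then has no spread among replicates. All comparisons with Vehicle share its 3 libraries. The strand setting of the counting is not given in the sources used here, and exons of several members overlap genes on the other strand (NOC2L with SAMD11, GNL3 with GLT8D1, PES1 with TCN2 and UTP15 with ANKRA2 among them), so their values may hold reads of those genes. The vehicle is given as 0.1% dimethyl sulfoxide in the sample labels and as 2% in the design text, and the doses are those of the labels. A549 and epithelial markers summed to at least 13420 CPM in each wortmannin, Polygalae 500 and Vehicle library. The list holds ALDH1A1 and AKR1B10, with medians of 6530 and 2730 CPM over all libraries. EPCAM and CDH1 had medians of 4.81 and 32 CPM. Of 10 fibroblast, endothelial and blood markers, COL3A1, CD14 and LUM had median levels of 5.3, 2.41 and 0.504 CPM over all libraries, DCN, VWF, PTPRC and HBB had a median of 0 CPM, and PDGFRB, PECAM1 and CDH5 had medians of 0.165, 0.0399 and 0.0963 CPM.

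Nearly the whole set was lower after wortmannin. Against Vehicle, 39 of 40 members fell, 0 rose, and the remaining member, NOC3L, had a lower mean that missed the threshold. The median log2 fold change of the members was -0.33, with a range from -0.54 (NPM1 and NOC2L) to -0.10 (POLR1B), which are falls of 31.1%, 31.2% and 6.57%. Of all 17368 tested genes, 19.4% fell and the median log2 fold change was 0.01. The mean was lower than in Vehicle for 40 of 40 members, against 48.6% of all tested genes.

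**Figure D1:**
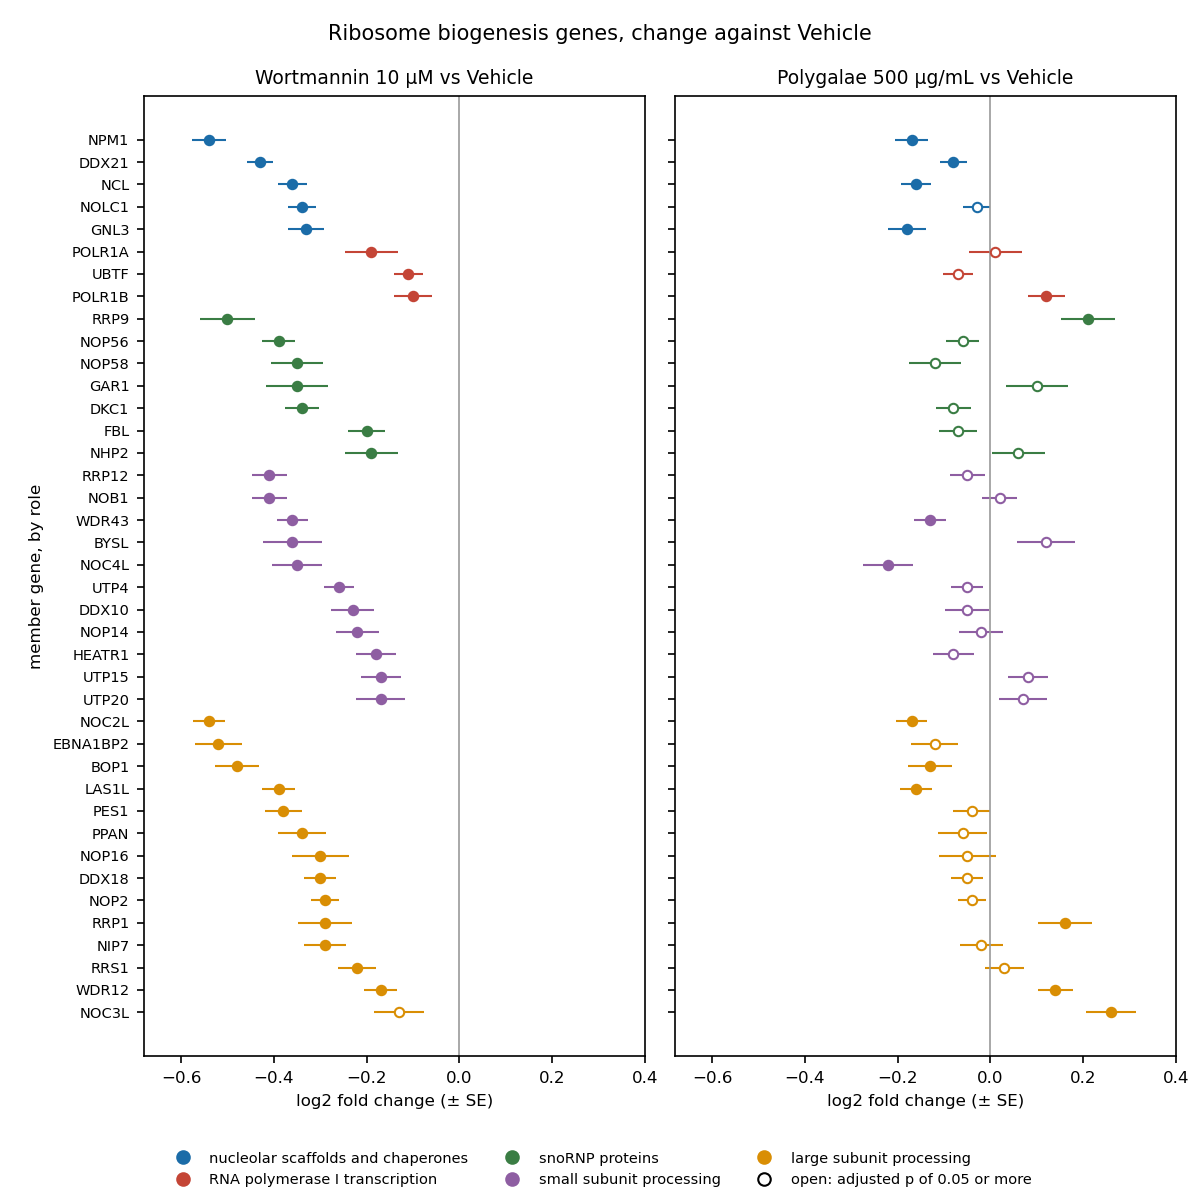
Log2 fold changes of the 40 members, grouped by role, in wortmannin against Vehicle (left) and Polygalae 500 µg/mL against Vehicle (right), with points for the estimate and bars for its standard error. Members lie from -0.54 to -0.10 in wortmannin and from -0.22 to 0.26 in Polygalae 500.

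All 5 scaffold and chaperone members fell in wortmannin (median log2 fold change -0.36). NPM1, nucleophosmin, an abundant protein of the outer nucleolar zone, lies at chr5:171387116-171411137 on the plus strand (GENCODE 29, GRCh38). Its level was 1342, 1342 and 1330 CPM in wortmannin, against 1892, 1992 and 1939 CPM in Vehicle. The groups did not overlap, and NPM1 fell by 31.1% (log2 fold change -0.54, SE 0.036, edgeR adjusted p = 3.78e-19). NCL, nucleolin, another abundant RNA-binding protein of the nucleolus, had 1133, 1152 and 1129 CPM in wortmannin, against 1413, 1449 and 1509 CPM in Vehicle. DDX21, a nucleolar RNA helicase, had 304, 311 and 312 CPM in wortmannin, against 420, 407 and 419 CPM in Vehicle. Both genes separated the groups without overlap and fell by 0.36 and 0.43 on the log2 scale (edgeR adjusted p = 5.05e-14 for NCL and 1.04e-18 for DDX21). NOLC1, a chaperone of snoRNPs, and GNL3, nucleostemin, a nucleolar GTP-binding protein, fell by 0.34 and 0.33 on the log2 scale. GNL3 was evenly lower, with 74.8, 73.4 and 74.4 CPM in wortmannin and 92.8, 92.9 and 93.1 CPM in Vehicle.

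The 3 members of the RNA polymerase I machinery fell least, with a median log2 fold change of -0.11. POLR1A, the largest subunit of the enzyme, had 216, 214 and 218 CPM in wortmannin, against 246, 245 and 245 CPM in Vehicle. Its log2 fold change was -0.19 (SE 0.057, edgeR adjusted p = 0.00825). POLR1B, the other large catalytic subunit, had 59.2, 58.4 and 58.3 CPM in wortmannin, against 64.3, 61.4 and 62.7 CPM in Vehicle. That gap is a fall of 0.10 on the log2 scale (SE 0.040, edgeR adjusted p = 0.0442), and its call was lost when any library but Vehicle replicate 2 was left out. UBTF, the factor that marks active ribosomal DNA, had 156, 155 and 153 CPM in wortmannin, against 158, 174 and 167 CPM in Vehicle. The UBTF groups are separated by a narrow margin, its log2 fold change was -0.11 (SE 0.032, edgeR adjusted p = 0.00465), and without Vehicle replicate 2 it was -0.08 and no longer called.

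All 7 snoRNP members fell (median log2 fold change -0.35). Among the box C/D proteins, which guide methylation of ribosomal RNA, RRP9 fell most. RRP9 takes part in the early cuts of the precursor, and had 20.6, 21.7 and 23.2 CPM in wortmannin, against 29.1, 31.7 and 31.6 CPM in Vehicle (log2 fold change -0.50, SE 0.060, edgeR adjusted p = 5.76e-10). NOP56, a core protein of the particle, had 268, 264 and 269 CPM in wortmannin and 349 CPM in each Vehicle library (log2 fold change -0.39, SE 0.036, edgeR adjusted p = 2.91e-13). FBL, fibrillarin, the methyltransferase of the particle, moved less, with 291, 281 and 284 CPM in wortmannin, against 324, 342 and 315 CPM in Vehicle (log2 fold change -0.20, SE 0.040, edgeR adjusted p = 6.54e-05). In all of these genes every wortmannin library lay below every Vehicle library. NOP58, the partner of NOP56, fell by 0.35 on the log2 scale. Among the box H/ACA proteins, which guide pseudouridine formation, DKC1, the enzyme itself, had 131, 125 and 131 CPM in wortmannin and 164, 159 and 167 CPM in Vehicle. DKC1 fell by 0.34 on the log2 scale (SE 0.037, edgeR adjusted p = 3.13e-11), and its core partners GAR1 and NHP2 fell by 0.35 and 0.19.

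All 11 small subunit members fell (median log2 fold change -0.26). RRP12, needed for export of the precursor of the small subunit, had 74.1, 74.5 and 76.2 CPM in wortmannin, against 97.5, 99.5 and 101 CPM in Vehicle. NOB1, the nuclease of the last cut in small subunit RNA, had 66.7, 64.4 and 65.6 CPM in wortmannin, against 83.1, 89.1 and 89.8 CPM in Vehicle. Neither gene overlapped between the groups, and both fell by 0.41 on the log2 scale (SE 0.038 each, edgeR adjusted p = 2.91e-13 for RRP12 and 1.23e-13 for NOB1). Factors that bind the precursor early differed in size. WDR43 had 146, 153 and 149 CPM in wortmannin, against 188, 196 and 190 CPM in Vehicle, and fell by 0.36 on the log2 scale (SE 0.034, edgeR adjusted p = 1.56e-13). HEATR1, of the same early complex, had 147, 152 and 152 CPM in wortmannin, against 171, 167 and 171 CPM in Vehicle, and fell by 0.18 on the log2 scale (SE 0.043, edgeR adjusted p = 0.000812). UTP4 and UTP15, also of that complex, fell by 0.26 and 0.17, and the later-acting UTP20 fell by 0.17, a call that was lost without Vehicle replicate 3. The helicase DDX10 and the paired factors NOP14 and NOC4L fell by 0.23, 0.22 and 0.35 on the log2 scale, and BYSL, which acts late in small subunit maturation, fell by 0.36.

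Of the 14 large subunit members, 13 fell, and the median log2 fold change was -0.30. NOC2L, an assembly factor at chr1:944204-959309 on the minus strand, had 93.2, 95.8 and 93.2 CPM in wortmannin, against 132, 137 and 141 CPM in Vehicle (log2 fold change -0.54, SE 0.034, edgeR adjusted p = 5.66e-20). EBNA1BP2, an assembly factor of the early large subunit, had 69.6, 67 and 70.9 CPM in wortmannin, against 96.5, 102 and 99.4 CPM in Vehicle (log2 fold change -0.52, SE 0.051, edgeR adjusted p = 1.3e-12). These were falls of 31.2% and 30.3%, and in each gene every wortmannin library lay below every Vehicle library. PES1, BOP1 and WDR12 form 1 complex, and they differed in size. BOP1 had 117, 115 and 119 CPM in wortmannin, against 161, 164 and 165 CPM in Vehicle (log2 fold change -0.48, SE 0.048, edgeR adjusted p = 2.07e-12). PES1 had 109, 110 and 108 CPM in wortmannin, against 142, 144 and 140 CPM in Vehicle (log2 fold change -0.38, SE 0.040, edgeR adjusted p = 8.08e-12). WDR12 fell by 0.17 on the log2 scale, with 53, 50.6 and 52 CPM in wortmannin and 59.2, 56.9 and 59.2 CPM in Vehicle. LAS1L, which helps cut the spacer of the large subunit precursor, fell by 0.39 on the log2 scale and PPAN by 0.34. The RNA methyltransferase NOP2, the helicase DDX18 and the assembly factors NOP16, RRP1 and NIP7 fell by 0.29 to 0.30, and RRS1 fell by 0.22. NOC3L, the partner of NOC2L, had 38.4, 39.5 and 40.4 CPM in wortmannin, against 42.1, 42.4 and 45 CPM in Vehicle. Its groups did not overlap either, but its log2 fold change of -0.13 had an SE of 0.054 and an edgeR adjusted p of 0.0502.

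Summed over the 40 members, wortmannin libraries held 6345, 6368 and 6347 CPM, against 8066, 8252 and 8289 CPM in Vehicle. The mean of the sum was 22.5% lower in wortmannin. NPM1 and NCL make up a large share of it, and without them the sum was 3869 to 3888 CPM in wortmannin and 4761 to 4841 CPM in Vehicle. The lowest of the 57 libraries outside the wortmannin group held 7512 CPM. All 40 members were lower in each wortmannin library than in each Vehicle library, a pattern shown by 25.6% of all tested genes. For 32 members each wortmannin library was also below all 57 other libraries, against 9.73% of all tested genes. The exceptions were POLR1A, POLR1B, UBTF, UTP15, UTP20, HEATR1, NIP7 and PPAN. In POLR1A, UTP20 and HEATR1 the lowest library of all was Polygalae 20 replicate 1, which stood apart, with 181, 115 and 129 CPM.

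**Figure D2:**
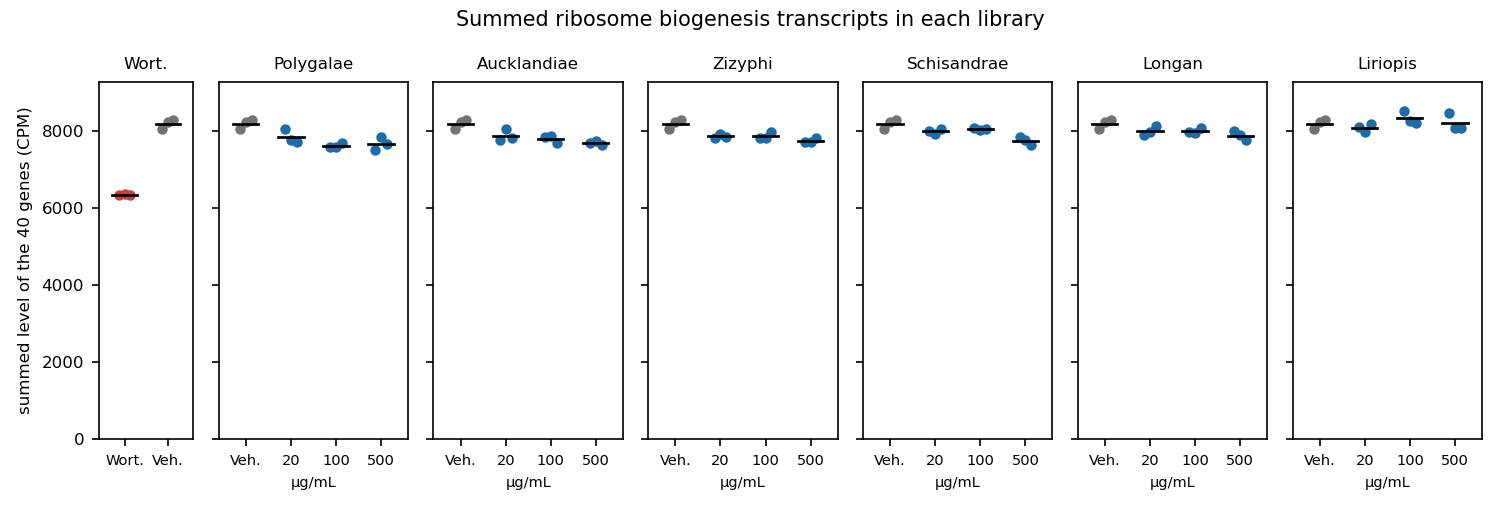
Summed CPM of the 40 members in each library (points) by treatment, with dose groups in order of dose. The 3 wortmannin libraries lie between 6345 and 6368 CPM and the other 57 between 7512 and 8545 CPM.

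The members differ widely in abundance, and the fall was not limited to the most abundant ones. Per kilobase of merged exon, NPM1 had 349 CPM in wortmannin and 507 CPM in Vehicle, NCL 164 and 210 CPM, and FBL 131 and 150 CPM. DDX10, the lowest member on that scale, had 4.56 CPM per kilobase in wortmannin and 5.34 in Vehicle. Among members with a promoter window, the 11 that hold CACGTG had a median log2 fold change of -0.29 in wortmannin and the 23 that lack it -0.33. A total of 7 members hold small nucleolar RNA genes within their bounds on the same strand (NCL, GNL3, NOP56, NOP58, DKC1, WDR43 and PPAN). The median of these 7 was -0.35, against -0.29 for the 33 others. All tested protein-coding genes that hold such a gene had a median of -0.03. These medians lie close together within the set and were not tested. RSEM divides reads that fit several genes, and NPM1 has 45 named pseudogenes in the annotation. Their summed level was 0.823 to 0.993% of that of NPM1 in wortmannin and 0.73 to 0.871% in Vehicle.

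The fall in wortmannin was present under each alternative that was run. All 40 log2 fold changes were negative in 13 settings, and 36 members were called in all 13. DESeq2 called 39 members, relative log expression (RLE) scaling 40, a fit to the compared libraries alone 40 and a fit without the libraries that stood apart 40. Leaving out 1 library at a time left 37 or 38. With the mean of the 6 extracts at 20 µg/mL in place of Vehicle, 40 members were lower in wortmannin. NOC3L was called in some settings, but not by DESeq2 and not when any library was left out.

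Other genes of ribosome production, from lists that hold no member, moved the same way. Of 103 further ribosome biogenesis genes, 79 fell and 1 rose in wortmannin, where 19.4% of all tested genes fell. Their median log2 fold change was -0.21, and 95.1% had a lower mean than in Vehicle. Among 12 further RNA polymerase I genes, 8 fell, including TCOF1, treacle, by 0.46, POLR1G by 0.38 and POLR1E by 0.27 on the log2 scale. Of 42 further small subunit factors, 35 fell, led by EMG1 (-0.44), PNO1 (-0.40) and NOL6 (-0.39). Of 39 further large subunit factors, 32 fell, led by RPF2 and PAK1IP1 (-0.36 each) and MAK16 (-0.35). The exception in that group was NOP53, which rose by 0.38 (SE 0.045, edgeR adjusted p = 6.06e-10). Among 10 further snoRNP and assembly genes, 4 fell, and RUVBL2 (-0.40), RUVBL1 (-0.39) and NUFIP1 (-0.25) changed most. RNA polymerase III makes transfer RNA and the smallest ribosomal RNA, and 9 of its 11 listed subunits fell, led by POLR3G (-0.52) and POLR3C (-0.31). The 79 cytosolic ribosomal protein genes did not share the direction, since 8 rose, 6 fell and their median was 0.05. RPL13 rose by 0.19, RPL10 by 0.17 and RPLP0 by 0.16 on the log2 scale. RPS26 and RPL38 fell by 0.46 and 0.20.

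**Figure D3:**
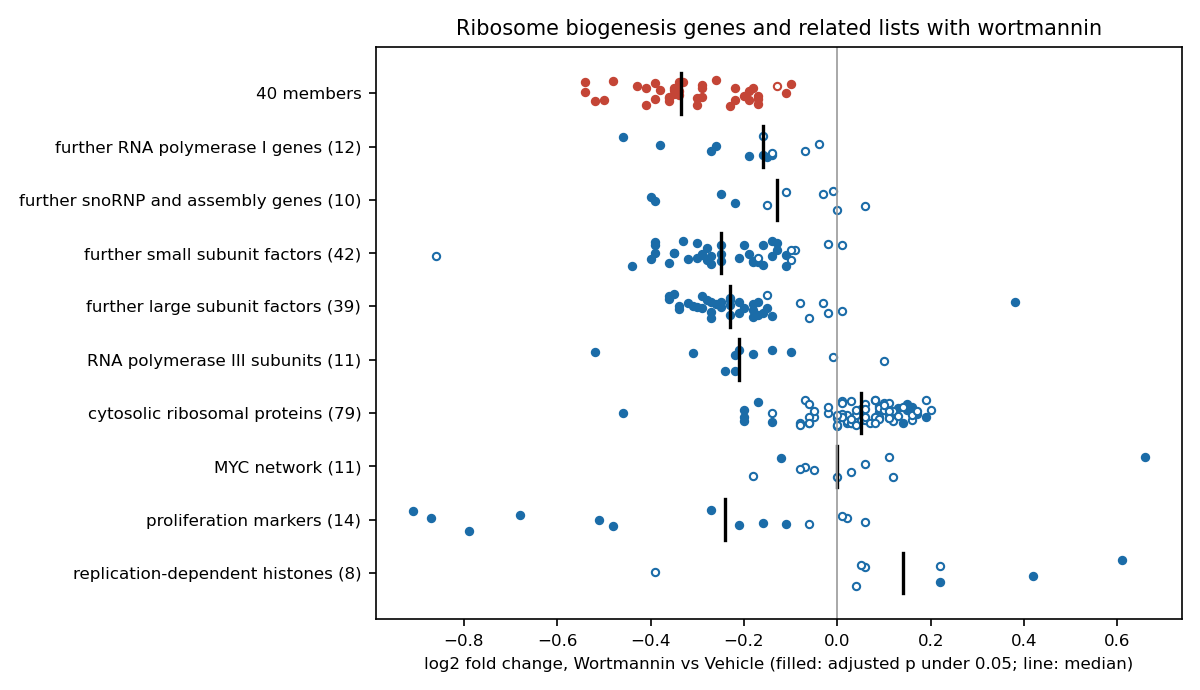
Log2 fold changes in wortmannin against Vehicle for the 40 members and for related gene lists, with 1 point per gene and a line at each list's median. The medians are -0.33 for the members, -0.25 for further small subunit factors, -0.23 for further large subunit factors and 0.05 for cytosolic ribosomal proteins.

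MYC messenger RNA was 127, 133 and 131 CPM in wortmannin, against 139, 135 and 137 CPM in Vehicle. Its log2 fold change of -0.07 did not pass the test (edgeR adjusted p = 0.129), and neither did those of its partner MAX (-0.08, adjusted p = 0.226) or of MXI1, a MAX partner that opposes MYC (-0.05, adjusted p = 0.702). MXD4, another MAX partner that opposes MYC, had 37.3, 37.6 and 36.7 CPM in wortmannin, against 22.5, 23.8 and 24.1 CPM in Vehicle. It rose by 0.66 on the log2 scale (SE 0.049, edgeR adjusted p = 2.43e-17). Of the 11 genes of the MYC network only MXD4 rose, and only MLX fell (-0.12). Whether messenger levels of these genes bear on the members was not tested. Of 14 proliferation markers, 10 fell, and the median log2 fold change of the list was -0.24. The replication genes PCNA, MCM4 and MCM6 did not have lower means. They had 264, 285 and 164 CPM in wortmannin, against 261, 284 and 157 CPM in Vehicle. MKI67 had 551, 592 and 571 CPM in wortmannin and 784, 788 and 826 CPM in Vehicle (edgeR adjusted p = 1.81e-05), and CCNB1, PLK1 and AURKA fell by 0.91, 0.87 and 0.79 on the log2 scale. Of 8 A549 and epithelial markers, 3 rose (KRT19 by 0.62, EPCAM by 0.53 and ALDH1A1 by 0.16) and 2 fell (AKR1B10 by 0.23 and AKR1C1 by 0.13). The sum of the 8 was 15835 to 16282 CPM in wortmannin and 15817 to 16181 CPM in Vehicle. Of 10 fibroblast, endothelial and blood markers, 3 were tested and 1 rose, CD14 (0.81), with sums of 9.62 to 10.6 CPM in wortmannin and 7.93 to 9.39 CPM in Vehicle. Replication-dependent histone transcripts, which can show how much RNA without a tail was captured, summed to 42.9 to 45.4 CPM in wortmannin and 36.4 to 39.5 CPM in Vehicle, and 3 of 8 rose (H1-2 by 0.61, H4C8 by 0.42 and H2AC6 by 0.22). The part of these markers in the fall of the members was not tested.

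In Polygalae at 500 µg/mL some members were higher and others lower, by small amounts. Against Vehicle, 5 members rose and 9 fell, where 10.4% of all tested genes rose and 9.48% fell. The count of rises is close to the share over all genes, and the count of falls is above it. The members' median log2 fold change was -0.05, with a range from -0.22 to 0.26, and all genes had a median of 0.00. The largest rise was that of NOC3L, with 51.9, 49.9 and 53.2 CPM in Polygalae 500, against 42.1, 42.4 and 45 CPM in Vehicle (log2 fold change 0.26, SE 0.054, edgeR adjusted p = 0.000205). RRP9 had 34.1, 35.9 and 37.2 CPM in Polygalae 500, against 29.1, 31.7 and 31.6 CPM in Vehicle (log2 fold change 0.21, SE 0.058, edgeR adjusted p = 0.00525). Both genes were higher in each Polygalae 500 library than in any Vehicle library. WDR12 rose by 0.14, RRP1 by 0.16 and POLR1B by 0.12 on the log2 scale (edgeR adjusted p = 0.00386, 0.0462 and 0.0252). RRP1 was not called by DESeq2 or with RLE scaling, and leaving out single libraries ended its call in 5 of 6 fits. POLR1B lost its call without any Polygalae 500 library and without Vehicle replicates 2 and 3, and RRP9 lost it without Vehicle replicate 1. Without the filter on low counts 2 members rose, since POLR1B, RRP1 and WDR12 lost their calls.

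The largest fall in Polygalae 500 was in NOC4L, the small subunit factor, with 43.5, 46.4 and 44.7 CPM in Polygalae 500, against 52.7, 51.9 and 52.3 CPM in Vehicle (log2 fold change -0.22, SE 0.054, edgeR adjusted p = 0.00168). Of the 5 scaffold members, 4 fell, with a median of -0.16. NPM1 had 1654, 1847 and 1686 CPM in Polygalae 500, against 1892, 1992 and 1939 CPM in Vehicle (log2 fold change -0.17, edgeR adjusted p = 0.000266). NCL fell by 0.16, GNL3 by 0.18 and DDX21 by 0.08 on the log2 scale. In NPM1 and NCL the Polygalae 500 libraries spread more widely than the wortmannin libraries, but stayed below Vehicle. NOC2L, LAS1L, WDR43 and BOP1 fell by 0.17, 0.16, 0.13 and 0.13, and the call of BOP1 was lost when any library but Polygalae 500 replicate 3 was left out. POLR1A (0.01, adjusted p = 0.932), UBTF (-0.07, adjusted p = 0.109), FBL (-0.07, adjusted p = 0.204), NOP56 (-0.06, adjusted p = 0.294), DKC1 (-0.08, adjusted p = 0.12), HEATR1 (-0.08, adjusted p = 0.214), PES1 (-0.04, adjusted p = 0.524) and NOB1 (0.02, adjusted p = 0.728) did not pass the edgeR test. Leaving out 1 library at a time left 10 or 11 members called.

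Around the members in Polygalae 500, 7 of the 103 further ribosome biogenesis genes rose and 7 fell, with a median of 0.01. Of all tested genes, 10.4% rose and 9.48% fell, so these counts are not above the shares over all genes. UTP18 rose by 0.27, POLR1H by 0.32 and NLE1 by 0.23 on the log2 scale, and RUVBL2 and TAF1D fell by 0.19 and 0.16. MYC had 143, 160 and 160 CPM in Polygalae 500, against 139, 135 and 137 CPM in Vehicle, and rose by 0.18 (edgeR adjusted p = 0.00026). MAX rose by 0.20 (adjusted p = 0.00339) and MXD4 fell by 0.21 (adjusted p = 0.00237), while MXI1 (0.11, adjusted p = 0.478) and MKI67 (-0.22, adjusted p = 0.0652) did not pass the edgeR test. Histone transcripts summed to 27 to 28.1 CPM in Polygalae 500 and 36.4 to 39.5 CPM in Vehicle, and 4 of 8 fell. A549 and epithelial markers summed to 13420 to 13714 CPM in Polygalae 500 and 15817 to 16181 CPM in Vehicle, with 4 that fell and 1 that rose. The part of these lists in the members' values was not tested.

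**Figure D4:**
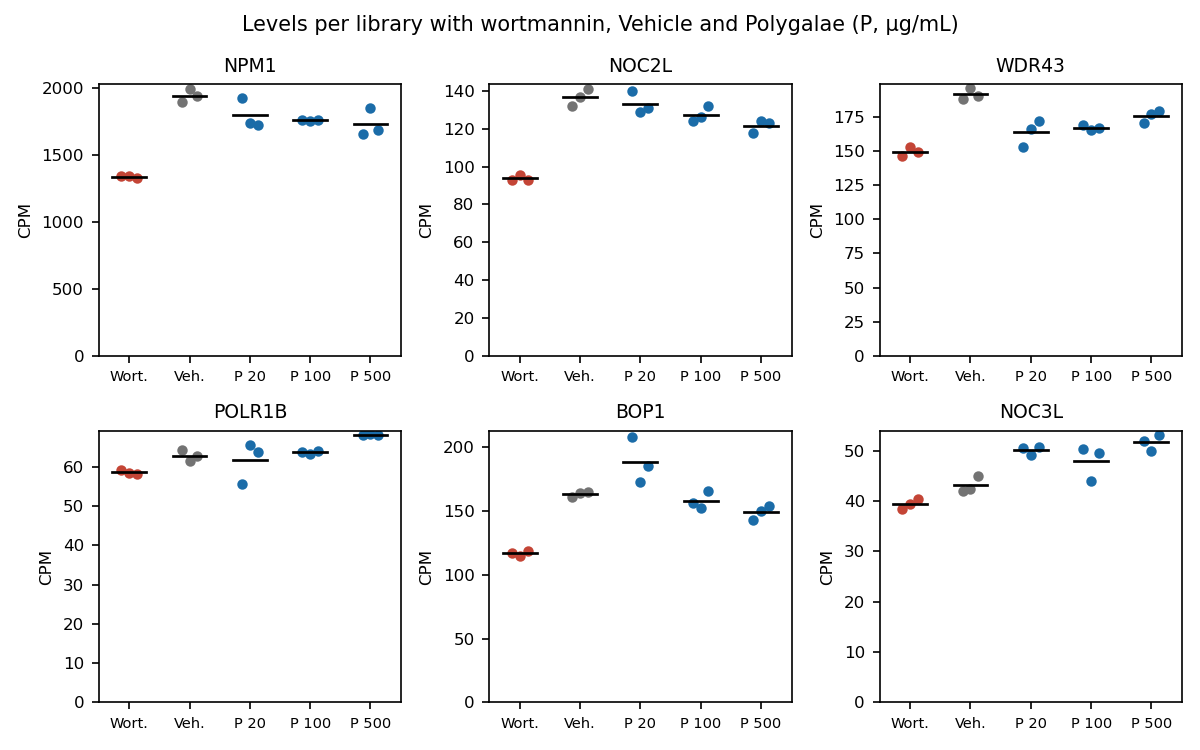
CPM of 6 members in each library (points) of wortmannin (Wort.), Vehicle (Veh.) and Polygalae at 20, 100 and 500 µg/mL (P 20, P 100, P 500). NPM1, NOC2L, WDR43 and BOP1 are lowest in wortmannin, and NOC3L is highest in Polygalae 500, at 49.9 to 53.2 CPM.

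Wortmannin and Polygalae 500 were also set against each other without Vehicle. In wortmannin 38 of 40 members were lower than in Polygalae 500 and 0 were higher, where 23.9% of all tested genes were lower. The median log2 fold change was -0.26. RRP9 differed most, with 20.6, 21.7 and 23.2 CPM in wortmannin, against 34.1, 35.9 and 37.2 CPM in Polygalae 500 (log2 fold change -0.71, SE 0.061, edgeR adjusted p = 4.37e-15). BYSL (-0.48), GAR1 and RRP1 (-0.45 each), NOB1 (-0.44) and EBNA1BP2 (-0.40) followed. UBTF (-0.04, adjusted p = 0.378) and HEATR1 (-0.10, adjusted p = 0.0687) did not pass the edgeR test. These libraries also differ in the prefix of their names, so the library set and the treatment cannot be told apart here either.

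In the other 5 extracts at 500 µg/mL few members changed, and those called were lower. In Aucklandiae 500, 3 members fell, where 2.69% of all tested genes fell. NPM1 had 1695, 1737 and 1668 CPM in Aucklandiae 500, against 1892, 1992 and 1939 CPM in Vehicle (log2 fold change -0.19, SE 0.035, edgeR adjusted p = 0.000261), and NCL and GNL3 fell by 0.13 each. In Zizyphi 500, 3 members fell, where 0.915% of all tested genes fell. These were NPM1 (1711, 1774 and 1743 CPM in Zizyphi 500, log2 fold change -0.16, edgeR adjusted p = 0.00912), WDR43 (170, 169 and 178 CPM, log2 fold change -0.15, edgeR adjusted p = 0.00579) and DDX21 (log2 fold change -0.12, edgeR adjusted p = 0.0196). In NPM1 and WDR43 no Zizyphi 500 library reached the lowest Vehicle library. In Schisandrae 500, 4 members fell, where 0.219% of all tested genes fell. NIP7, an assembly factor of the large subunit, had 59.4, 58.1 and 58.3 CPM in Schisandrae 500, against 69.2, 66.5 and 66.6 CPM in Vehicle (log2 fold change -0.20, edgeR adjusted p = 0.0208). DKC1, NOLC1 and DDX21 fell by 0.16, 0.13 and 0.11 in Schisandrae 500.

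These calls rested on few libraries. Leaving out 1 library at a time left 1 to 3 members called in Aucklandiae 500, 1 or 2 in Zizyphi 500 and 0 or 1 in Schisandrae 500. The call of NPM1 in Aucklandiae 500 held in each of those fits, that of NCL was lost without Vehicle replicate 3 or Aucklandiae 500 replicate 3, and that of GNL3 in every fit. In Zizyphi 500, NPM1 and WDR43 lost their calls without Vehicle replicate 2 or Zizyphi 500 replicate 1, and DDX21 lost its call in 4 of 6 fits. In Schisandrae 500, NIP7, NOLC1 and DDX21 were called in none of those fits, and DKC1 was called only without Vehicle replicate 2. Longan 500 had 0 members called by edgeR and 1 by DESeq2, where 0.104% of all tested genes changed in edgeR. At an unadjusted p under 0.05 it had 7 members (17.5%), against 10.1% of all tested genes. Liriopis 500 had 0 called by edgeR and by DESeq2, where 0.00576% of all tested genes changed in edgeR. At an unadjusted p under 0.05 it had 3 members (7.5%), against 8.24% of all tested genes. The members' shares at that unadjusted threshold were 35% in Aucklandiae 500, 30% in Zizyphi 500 and 35% in Schisandrae 500. All tested genes had shares of 18.9%, 13.7% and 10.7% in the same order. The members' median log2 fold changes were -0.05 in Aucklandiae 500, Zizyphi 500 and Schisandrae 500, -0.03 in Longan 500 and 0.02 in Liriopis 500. Their means were below Vehicle for 30, 32 and 32 of 40 members in Aucklandiae 500, Zizyphi 500 and Schisandrae 500. MYC was called in none of these 5 groups, with log2 fold changes from -0.11 (Longan 500, edgeR adjusted p = 0.218) to 0.04 (Liriopis 500). MXD4 rose in Schisandrae 500 by 0.25 (edgeR adjusted p = 0.00897).

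At 20 and 100 µg/mL the same 6 extracts gave 29 calls over 12 comparisons with Vehicle, 5 up and 24 down, most of them in Polygalae. Over the same tests of all genes, 1.52% were calls up and 1.21% calls down. The same totals without the libraries that stood apart are not given, since that fit has no such share of all genes. Polygalae 20 had 4 members up, where 6.59% of all tested genes rose, and 5 down, where 5.53% fell. NHP2 (0.24) and NOC3L (0.22) rose most and WDR43 (-0.23) and NCL (-0.16) fell most. Without the 2 libraries that stood apart, only replicate 2 is left in Polygalae 20. The values were then -0.21 for WDR43, -0.16 for NCL and NPM1, and 0.19 for NHP2 and NOC3L. The other called members moved closer to Vehicle. RRP1 went from 0.22 to 0.16, BOP1 from 0.21 to 0.09, HEATR1 from -0.16 to -0.10 and NOLC1 from -0.11 to -0.01. With the compared libraries alone 0 members were called, and the count was 5 without replicate 1 and 14 without replicate 3. Polygalae 100 had 1 member up, NOC3L (0.16), where 7.51% of all tested genes rose, and 12 down, where 5.27% fell. PPAN, GNL3 and WDR43 (-0.20 each) were the largest of those falls, and NOC4L (-0.19), NCL (-0.18) and NPM1 (-0.14) were among them. GNL3 had 81.5, 78.2 and 82.7 CPM in Polygalae 100, against 92.8, 92.9 and 93.1 CPM in Vehicle, with no overlap. Leaving out 1 library at a time left 5 to 10 members called in Polygalae 100, with 5 without its replicate 1, and 8 were called without the filter on low counts.

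In the other extracts at these doses the calls were few, and NPM1 and WDR43 recurred. NPM1 was the 1 member called in Aucklandiae 20 (-0.15), where 1.61% of all tested genes fell, and in Zizyphi 20 (-0.15), where 0.184% fell. NPM1 and WDR43 fell in Aucklandiae 100 (-0.15 and -0.14), where 0.967% of all tested genes fell, and in Zizyphi 100 (-0.14 and -0.13), where 0.328% fell. WDR43 fell in Schisandrae 100 (-0.17), with 168, 173 and 171 CPM, against 188, 196 and 190 CPM in Vehicle, where 0.484% of all tested genes fell. Leaving out single libraries ended the calls in Zizyphi 20 and Zizyphi 100 in each fit, and in some fits for Aucklandiae 20, Aucklandiae 100 and Schisandrae 100. The remaining 5 comparisons had 0 members called by edgeR. At an unadjusted p under 0.05 the members' shares were 22.5% in Schisandrae 20, 15% in Longan 20, 22.5% in Longan 100, 5% in Liriopis 20 and 15% in Liriopis 100. The shares of all tested genes at that unadjusted threshold were 11.1%, 9.79%, 10.8%, 8.5% and 9.66% in the same order. DESeq2 called 1 member in Schisandrae 20 and 0 in the other 4. The shares of all tested genes called by edgeR were 0.196% in Schisandrae 20, 0.0173% in Longan 20, 0.132% in Longan 100, 0.0864% in Liriopis 20 and 0.00576% in Liriopis 100.

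Over all 18 extract comparisons, which share the Vehicle libraries and so are not independent of each other, 22 members were called at least once and 18 never, where 31.4% of all tested genes were called at least once. Of 53 calls of members, 10 were up (1.39% of their tests) and 43 down (5.97%), where 1.78% of the tests of all genes were calls up and 1.55% calls down. Totals without the libraries that stood apart are not given, since the share of all tested genes was not counted in that fit. NPM1 fell in 9 comparisons, WDR43 in 7, and NCL and DDX21 in 4 each. NPM1 in the extract libraries ran from 1654 CPM (Polygalae 500) to 2075 CPM (Liriopis 500), with Vehicle at 1892 to 1992 CPM. WDR43, an early factor of the small subunit, and DDX21 had a lower mean than Vehicle in all 18. NOC3L rose in 3 comparisons, all in Polygalae (2 without the libraries that stood apart), and its mean was above Vehicle in all 18, as was that of NHP2. BOP1 rose in Polygalae 20 and fell in Polygalae 500. Its log2 fold change in Polygalae 20 was 0.09 without the libraries that stood apart. FBL and NOB1, both of which fell in wortmannin, were called in no extract with or without those libraries.

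**Figure D5:**
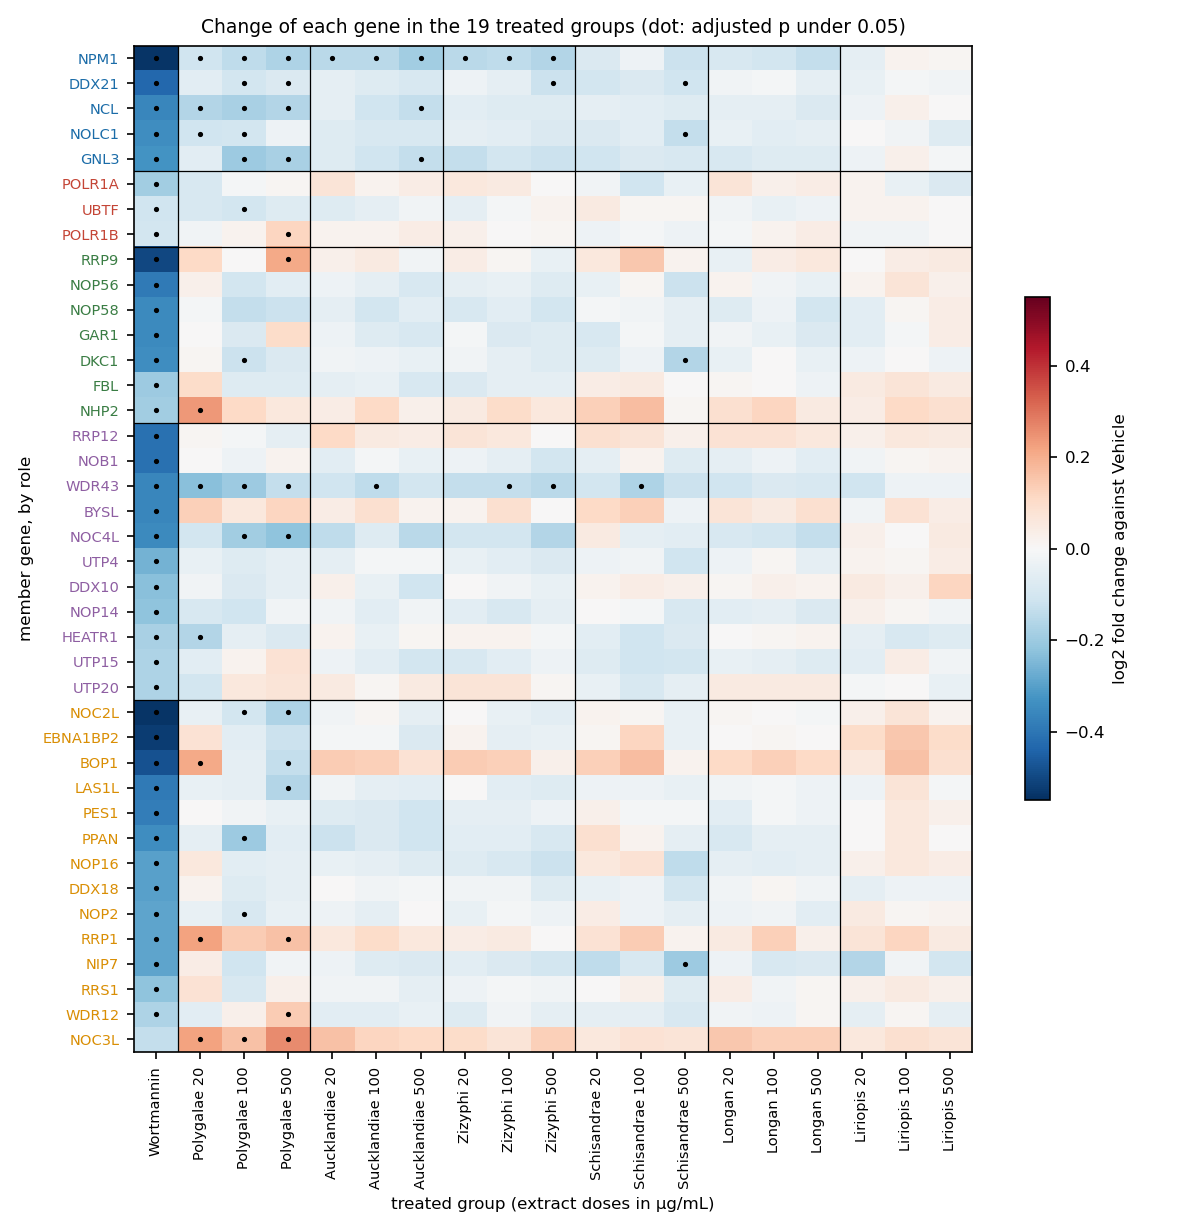
Log2 fold changes of the 40 members (down the page, by role) against Vehicle in the 19 treated groups (across, wortmannin first), with dots where the edgeR adjusted p is under 0.05. The wortmannin column has 39 dots and the 18 extract columns have 53 in all.

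Dose slopes, fitted over the 9 libraries of an extract without Vehicle, stay within 1 library set. In Polygalae, 1 member rose per 5-fold step of dose, where 2.99% of all tested genes rose, and 1 fell, where 2.03% fell. Each count is close to the share over all genes. At an unadjusted p under 0.05 in edgeR, 11 members (27.5%) had a Polygalae slope, 3 up and 8 down, against 19.1% of all tested genes. BOP1 had 208, 173 and 185 CPM at 20 µg/mL, 156, 152 and 166 CPM at 100 µg/mL and 143, 150 and 154 CPM at 500 µg/mL. That is a slope of -0.17 log2 units per step (SE 0.034, edgeR adjusted p = 0.00958), in which all libraries at 20 µg/mL were above all at the higher doses. Without the 2 libraries that stood apart, which had 208 and 185 CPM, the slope of BOP1 was -0.10. Only replicate 2 is then left at 20 µg/mL. WDR12, its partner in the complex, had 54.3, 54.5 and 58.5 CPM at 20 µg/mL, 62.3, 59.4 and 58 CPM at 100 µg/mL and 63.7, 64.7 and 64.3 CPM at 500 µg/mL. Its slope of 0.10 (SE 0.024, edgeR adjusted p = 0.0263) lost its call without any Polygalae 500 library or without Polygalae 20 replicate 2. Without the libraries that stood apart the slope of WDR12 was 0.12, again with only replicate 2 left at 20 µg/mL. MXD4 fell with dose by 0.17 per step (edgeR adjusted p = 0.0114), and MYC had a slope of 0.09 (adjusted p = 0.07). The other 5 extracts had 0 members with a slope called by edgeR or DESeq2. At an unadjusted p under 0.05 the members' shares were 10% in Aucklandiae, 10% in Zizyphi, 17.5% in Schisandrae, 2.5% in Longan and 2.5% in Liriopis, against 9.64%, 8.9%, 6.71%, 4.54% and 5.51% of all tested genes in the same order. The shares of all tested genes with a slope called by edgeR were 0.967% in Aucklandiae, 0.351% in Zizyphi, 0.0403% in Schisandrae, 0.0345% in Longan and 0.0461% in Liriopis.

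Extracts that share a library set were compared at 500 µg/mL. Polygalae 500 against Aucklandiae 500 had 5 members higher, where 8.2% of all tested genes were higher, and 3 lower, where 7.04% were lower. At an unadjusted p under 0.05, 25% of the members differed, against 25.9% of all tested genes, so the set did not stand out by that count. WDR12 had 63.7, 64.7 and 64.3 CPM in Polygalae 500, against 55.7, 57.5 and 57.7 CPM in Aucklandiae 500 (log2 fold change 0.17, edgeR adjusted p = 0.000297). RRP9 (0.23, adjusted p = 0.00274), GAR1 (0.19, adjusted p = 0.047), UTP15 (0.19, adjusted p = 0.00101) and NOC3L (0.15, adjusted p = 0.0478) were higher too in the edgeR test. BOP1 had 143, 150 and 154 CPM in Polygalae 500, against 173, 178 and 166 CPM in Aucklandiae 500 (log2 fold change -0.21, edgeR adjusted p = 0.000989). NOC2L (-0.12, adjusted p = 0.00655) and LAS1L (-0.10, adjusted p = 0.0475) were lower. Leaving out 1 library at a time left 5 to 7 members called, with GAR1 and NOC3L lost in 5 and 4 of 6 fits, LAS1L in 4 and NOC2L without Polygalae 500 replicate 1. GAR1 was not called with a replicate block, and neither GAR1 nor NOC3L was called by DESeq2. Schisandrae 500 against Liriopis 500 had 2 members lower, where 0.178% of all tested genes were lower. At an unadjusted p under 0.05 in edgeR, 15 members (37.5%) were lower and 0 higher. Of all tested genes, 10.8% differed in either direction at that threshold. NOP56 had 316, 328 and 321 CPM in Schisandrae 500, against 378, 348 and 344 CPM in Liriopis 500 (log2 fold change -0.15, edgeR adjusted p = 0.0449). UTP4 had 88.2, 88.2 and 89.1 CPM in Schisandrae 500, against 102, 95.3 and 96.2 CPM in Liriopis 500 (log2 fold change -0.15, edgeR adjusted p = 0.0285). Both were lost without Liriopis 500 replicate 1 or any Schisandrae 500 library, and 7 members were called without Liriopis 500 replicate 3. Zizyphi 500 against Longan 500 had 0 members called by edgeR and by DESeq2, where 0.213% of all tested genes differed in edgeR. At an unadjusted p under 0.05 it had 1 member (2.5%), against 6.43% of all tested genes.

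The dose slopes of extracts with a shared library set were also set against each other, in the model with all libraries. Polygalae against Aucklandiae had 2 members with a higher slope, where 5.44% of all tested genes had one, and 1 with a lower slope, where 3.67% did. These were UTP15, WDR12 and BOP1, and without the libraries that stood apart only WDR12 was called. Zizyphi against Longan had 0 members called by edgeR, where 0% of all tested genes differed, and at an unadjusted p under 0.05 it had 1 member (2.5%), against 4.67% of all tested genes. Schisandrae against Liriopis had 0 called by edgeR, where 0.00576% of all tested genes differed, and at an unadjusted p under 0.05 it had 7 members (17.5%), against 9.18% of all tested genes. DESeq2 was not run on these differences.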

How the data were processed

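The deposited table holds expected counts, that is, estimated fragment counts per gene that need not be whole. Per the submitters' processing notes, the tools were FastQC 0.11.9, Trim Galore 0.6.5, STAR 2.7.3a and RSEM 1.3.3 with the build GRCh38. Per the labels' protocols, the kit was strand-specific, reads were paired-end with 100 bases each, and RNA integrity numbers exceeded 7. The release of the annotation is not given in the sources used here. Every column of the table matched a sample (0 did not). Symbols came from a gene table for 56558 genes and from GENCODE 29 for 497, and 3620 had none. The deposited counts were rounded, since 10.7% were not whole.

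In R 4.3.3, filterByExpr kept 17368 genes, libraries were TMM-scaled, and edgeR 4.0.16 fitted a robust quasi-likelihood model with 1 mean per group to all 60 libraries. Each treated group was compared with Vehicle, and extracts that share a library set with each other at 500 µg/mL. Slopes per 5-fold step of dose used the 9 libraries of an extract. Tests were two-sided with Benjamini-Hochberg adjustment. SE is the absolute log2 fold change over the square root of F. Alternatives were RLE scaling, no filter, a replicate block, the compared libraries alone, slopes from all libraries, DESeq2 1.42.0 and leaving out each library. The scripts were tested on simulated data. Replicate numbers did not pair the samples, since 0 of 23 comparisons had every same-number correlation above 0.1.

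The members and gene lists were chosen with earlier results of these data known. Named in each comparison were up to 6 called members each way by fold change (2 at lower doses), a panel (NCL, NPM1, FBL, NOP56, DKC1, POLR1A, POLR1B, UBTF, HEATR1, PES1, BOP1 and NOB1, with MYC and MKI67), and up to 3 called genes each way of each further list, some of which are not reported here. The remaining members, and further genes of lower doses, were named after their values were seen. Wortmannin against Polygalae 500, the differences of slopes, the fit without libraries that stood apart and the baseline of extracts at 20 µg/mL were added after the data were seen. Promoter windows were matched by symbol to RefSeq GRCh38.p14, with the first window where several are listed (as for EBNA1BP2). No window was used for NOLC1, NOP58, RRP12, BOP1, RRS1 and DDX18. A total of 11 words were searched on both strands.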

Additional observations from a re-analysis of the deposited data

Results flagged for a closer look

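Dose responses of 3 members differed between Polygalae and Aucklandiae, a pair of extracts whose libraries share a set, in an edgeR test of the difference of slopes that was added after the data were seen. They were 2 higher and 1 lower of 40, where 5.44% of all tested genes had a higher and 3.67% a lower slope, so the count is close to the share over all genes. BOP1 had 208, 173 and 185 CPM at 20 µg/mL, 156, 152 and 166 CPM at 100 µg/mL and 143, 150 and 154 CPM at 500 µg/mL of Polygalae. In Aucklandiae it had 171, 188 and 180 CPM, then 182, 181 and 172 CPM, then 173, 178 and 166 CPM at the same doses. The Polygalae slope minus the Aucklandiae slope was -0.138 log2 units per 5-fold step (SE 0.0335, adjusted p = 0.00351). WDR12 had a slope 0.0905 higher in Polygalae than in Aucklandiae (SE 0.0262, adjusted p = 0.018), with 63.7, 64.7 and 64.3 CPM in Polygalae 500 and 55.7, 57.5 and 57.7 CPM in Aucklandiae 500. UTP15 had a slope 0.112 higher (SE 0.0312, adjusted p = 0.0133), with 46.9, 43.9 and 45.8 CPM in Polygalae 500 and 38.5, 39.6 and 41.7 CPM in Aucklandiae 500.

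The lowest Polygalae dose includes the 2 libraries that stood apart. Without them the difference was -0.0785 for BOP1, 0.0995 for UTP15 and 0.108 for WDR12, with only replicate 2 left at that dose. What set those libraries apart was not tested.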

How the results depend on the processing

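The fall of the members in wortmannin against Vehicle kept its direction in all 40 members under 13 settings, with 39 to 40 members called under another scaling, filter, model or baseline and 37 to 38 with 1 library left out. The other comparisons had few calls and moved more. With the compared libraries alone, members called were 9 in Aucklandiae 500 (3 in the reported fit), 6 in Zizyphi 500 (3), 7 in Schisandrae 500 (4), 3 in Longan 500 (0), 0 in Schisandrae 500 against Liriopis 500 (2) and 47 over the 12 comparisons at 20 and 100 µg/mL (29), among which Polygalae 20 had 0 (9). With DESeq2 they were 6 in Aucklandiae 500, 1 in Longan 500 and 5 in Schisandrae 500 against Liriopis 500. Without the libraries that stood apart they were 8 in Aucklandiae 500, 7 in Schisandrae 500 and 4 in Schisandrae 500 against Liriopis 500. Without a filter on low counts they were 2 in Schisandrae 500, 5 in Polygalae 500 against Aucklandiae 500, 0 in Schisandrae 500 against Liriopis 500 and 1 in the Polygalae slope, while the rises in Polygalae 500 were 2 (5 in the reported fit) and the members called in Polygalae 100 were 8 (13). The Polygalae slope had 13 members called (6 up and 7 down) when it was fitted with all libraries. The cause of these shifts was not tested. Shares of all tested genes were not counted under the other settings of this section. The counts there are therefore not read as results about the members.

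With 1 library left out, members called ranged from 10 to 11 in Polygalae 500 (14 in the reported fit), from 1 to 3 in Aucklandiae 500, from 1 to 2 in Zizyphi 500, from 0 to 1 in Schisandrae 500, from 5 to 7 in Polygalae 500 against Aucklandiae 500, from 0 to 7 in Schisandrae 500 against Liriopis 500, from 36 to 38 in wortmannin against Polygalae 500, from 1 to 3 in the Polygalae slope, from 0 to 1 in the Aucklandiae slope and from 18 to 34 over the lower doses. They stayed at 0 in Longan 500, Liriopis 500, Zizyphi 500 against Longan 500 and the other slopes.

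Same-numbered libraries of different groups did not deviate together (correlations from -0.29 to 0.17). With the replicate number as a block, 40 members fell in wortmannin, 14 changed in Polygalae 500 and 1 had a slope in Polygalae, where WDR12 lost its call, and GAR1 lost its call in Polygalae 500 against Aucklandiae 500. Among members named in the report, 702 values under other settings kept their side of the threshold, 12 passed it and 22 no longer did. With 1 library left out, 637 kept their side, 2 passed it and 87 no longer did. No value called in the reported fit or in the other setting changed sign. Sign changes among values called in neither were not counted.

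With 3 libraries a group, single members with a log2 change near 0.1 lie at the edge of what passes the test, so a member that was not called in an extract is not shown to be unchanged.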
